A study of Mus musculus with 2 samples.

Results

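Messenger RNA of 10 genes of the ATF4 amino acid response was compared between mitral valves of mice with a fibrillin-1 mutation and valves of wild-type mice. The genes are Asns, Atf4, Ddit3, Trib3, Sesn2, Psat1, Phgdh, Chac1, Slc7a11 and Hspa5, taken by symbol, and all 10 were found among the 33640 gene symbols of the table. The set was chosen with results of these data known, and Asns was the gene it was chosen by: its TPM was over 2-fold higher in the mutant pool. Hspa5 was included as a contrast from the unfolded protein response. The mutant pool was mitral valve tissue of mice of genotype Fbn1C1039G/+, heterozygous for a missense allele of the fibrillin-1 gene that models Marfan syndrome, and the other pool was the same tissue of WT mice. In both, tissue of 8 hearts from 5-month-old males and females was pooled into 1 RNA sample and 1 library. With 1 library a genotype there is no replicate check, so values carry no error and no test, and a difference is one between these 2 libraries.

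ATF4 is a transcription factor whose mRNA is translated better when the initiation factor eIF2 is phosphorylated. That happens when amino acids run short, when unfolded proteins build up in the endoplasmic reticulum, and under other stresses. ATF4 then binds composite C/EBP-ATF sites and raises genes that make, import and conserve amino acids, together with genes that restrain the response. ATF4 activity is controlled largely at translation, so its mRNA need not follow it. Hspa5 encodes BiP, the main chaperone of the endoplasmic reticulum, and is best known as a target of ATF6 and XBP1 through another promoter element.

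Promoter sequence is shown first for the 5 members in which a match to one of these elements was found. A match is one of letters, and binding was not measured. The windows of RefSeq (GRCm38.p6) run from 250 bases before to 50 bases after a gene's start and were found for all 10 members, with 2 windows for Psat1. The C/EBP-ATF response element was searched as TGATGNAA and the endoplasmic reticulum stress element as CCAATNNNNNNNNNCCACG, on both strands, and no match overlapped another. Matches are in capitals, each line is written 5′ to 3′ on the strand of the gene, and a match on the other strand appears as its reverse complement.
Asns, chr6:7693225-7693324, minus strand, C/EBP-ATF element in capitals: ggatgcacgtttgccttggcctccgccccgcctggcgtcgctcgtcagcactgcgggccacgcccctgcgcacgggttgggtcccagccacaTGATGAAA
Slc7a11, chr3:50443614-50443713, minus strand, both C/EBP-ATF elements in capitals: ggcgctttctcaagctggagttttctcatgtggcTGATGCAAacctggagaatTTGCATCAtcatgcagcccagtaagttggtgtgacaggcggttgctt
Chac1, chr2:119350992-119351091, plus strand, C/EBP-ATF element in capitals: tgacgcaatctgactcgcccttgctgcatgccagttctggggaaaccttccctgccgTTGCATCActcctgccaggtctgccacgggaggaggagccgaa
Trib3, chr2:152344028-152344057, minus strand, C/EBP-ATF element in capitals: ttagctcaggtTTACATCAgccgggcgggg
Hspa5, chr2:34772020-34772049, plus strand, stress element in capitals: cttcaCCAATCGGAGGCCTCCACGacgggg

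Counted from the RefSeq start site, the Asns match lay at -23 to -16 and the Chac1 match at -193 to -186. Slc7a11 carried 2 matches in opposite orientation, at -66 to -59 and at -47 to -40. The Trib3 match lay at 15 to 22, just inside the part that RefSeq gives as transcribed and upstream of the start that GENCODE gives. The stress element of Hspa5 lay at -65 to -47 and was the single match to that pattern in the members' windows. GENCODE places the starts of Asns and Hspa5 further upstream, so that their matches fall within its gene bounds. TGATGNAA was present in 1304 of all 32851 promoter windows (3.97%) and the stress element in 39 (0.119%). The windows of Atf4, Ddit3, Sesn2, Psat1 and Phgdh held neither pattern, which says only that these letters are not in these windows.

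**Figure D1:**
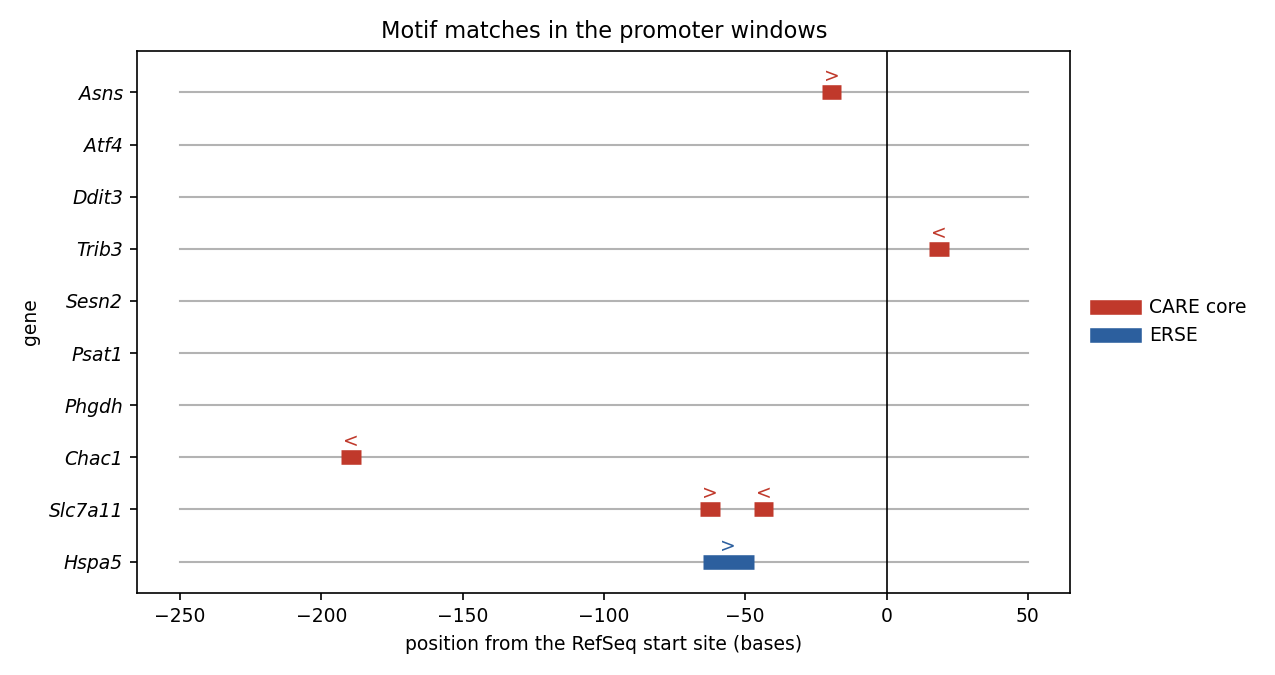
Motif matches in the promoter windows of the 10 genes. The x axis is the position in bases from the RefSeq start site (vertical line), each grey line is a window, red bars are C/EBP-ATF element cores (CARE core), the blue bar is the endoplasmic reticulum stress element (ERSE), and arrowheads give the strand of a match relative to the gene. Slc7a11 holds 2 cores, Asns, Chac1 and Trib3 hold 1 each, Hspa5 holds the stress element, and both windows of Psat1, drawn as 1 line, hold none.

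Of the 10 genes, Asns and Slc7a11 were the highest in the mutant pool relative to WT by ratio, Trib3 was lower, and Phgdh and Psat1 had nearly the same level in both pools. Levels are in TPM, an estimate of transcript abundance as a share of the library, already scaled for transcript length. Differences are mutant minus WT on the log2(TPM + 1) scale, which makes the differences of low genes look smaller. Genes were taken as 2-fold higher or lower from a difference of 1 in size, provided their TPM averaged at least 1 over the pools. All 10 members passed that minimum, 1 was 2-fold higher (Asns, from whose difference the set was chosen) and 0 were 2-fold lower. Over all 17004 genes with such a mean, 818 were 2-fold higher (4.81%) and 293 were 2-fold lower (1.72%), and among protein-coding genes alone these shares were 2.7% and 0.923%. The median difference of the members was 0.23, or 0.15 without Asns, beside a median of 0.14 over all 17004 genes. Most genes were thus slightly higher in the mutant pool (64.9% above 0), and 6 of the 10 members lay above the overall median.

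**Figure D2:**
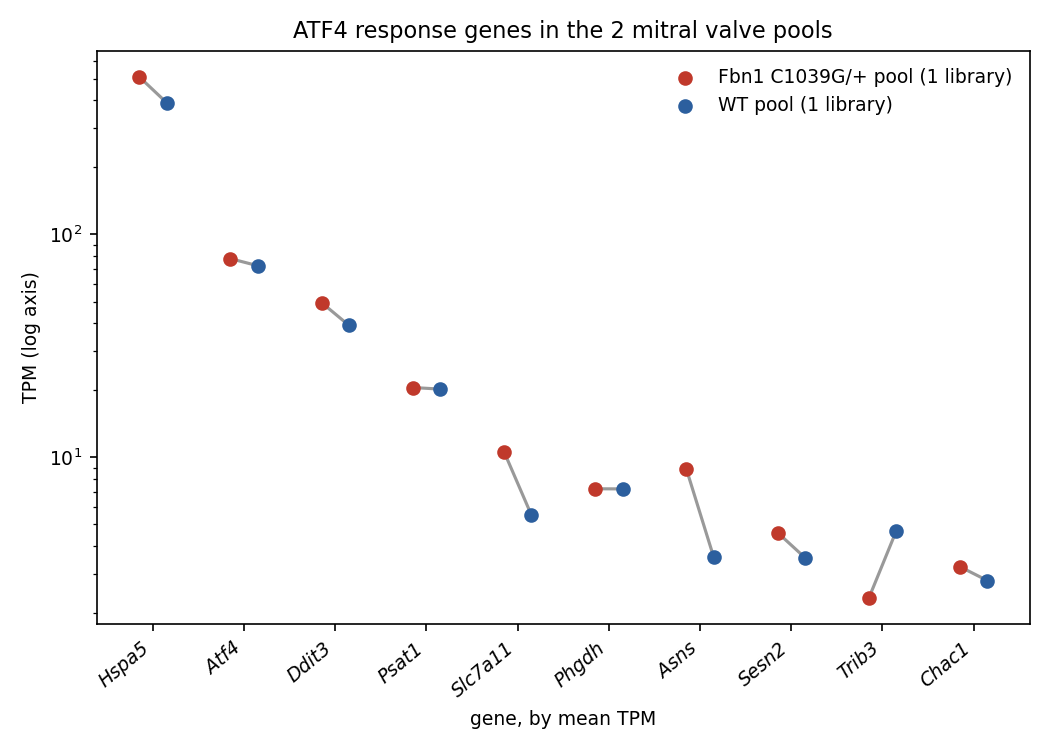
Level of each gene in the 2 pools. The y axis is TPM on a log axis, genes are ordered by mean TPM, and each point is 1 library (mutant left, WT right) joined by a line. Asns (8.85 against 3.56 TPM) and Slc7a11 (10.6 against 5.52 TPM) slope down towards the WT pool, Trib3 (2.33 against 4.66 TPM) slopes up, and Phgdh is level.

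The libraries themselves set the scale for these differences. The TPM columns summed to 999945 in the mutant and 999964 in the WT pool, and depth cannot be had from TPM, so no interval could be given. Under quantile normalization the counts over all genes were 540 higher and 462 lower in place of 818 and 293. Fbn1 was at 126 TPM in the mutant pool and 108 TPM in the WT pool, which is no check of the labels, since a missense allele can leave the mRNA level as it is. Genes of valve tissue were abundant in both, with the fibroblast proteoglycan gene Dcn at 9304 TPM in the mutant and 11409 TPM in the WT pool, and Vim at 3167 and 2797 TPM in the same order. Differences scattered more at low abundance. The central 95% of genes lay between -1.44 and 1.93 at a mean TPM of 1 to 5, between -0.87 and 1.46 at 5 to 10, and between -0.61 and 1.001 at 10 to 50. All 10 members lay within the central 95% of the genes in their own abundance class.

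Asns encodes asparagine synthetase, which makes asparagine from aspartate and glutamine and is a classical ATF4 target. Its locus is chromosome 6, 7675169 to 7693254, on the minus strand of mm10 (ENSMUSG00000029752.12). Asns was at 8.85 TPM in the mutant pool and 3.56 TPM in the WT pool, a ratio of 2.49 and a difference of 1.11. Among the 2435 genes with a mean TPM of 5 to 10, of which 151 were 2-fold higher, it stood at percentile 94.9. Asns is the member just inside the 2-fold limit, and Slc7a11, at 0.83, is the one just outside it. With all differences centred on the median of genes averaging 10 TPM or more, the Asns difference was 0.9996, and under quantile normalization it was 0.90, so that no member was 2-fold higher under either.

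The genes whose pair of values was nearest to that of Asns, over the 2 libraries, were Tex13b, Bcl2a1a and Lrrc7. Tex13b was at 8.99 TPM in the mutant and 3.69 TPM in the WT pool. Bcl2a1a, a member of a group of near-identical genes related to BCL2, was at 8.83 and 3.42 TPM in the mutant and WT pools, and Lrrc7 at 8.84 and 3.73 TPM. With 2 libraries such likeness amounts to a shared level and a shared ratio.

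The 2 genes for serine-making enzymes among the members did not share the Asns difference. Phgdh, which catalyses the first step of serine synthesis from glycolysis, was at 7.23 TPM in the mutant pool and 7.22 TPM in the WT pool (chromosome 3, 98313170 to 98339990, minus strand). Psat1, the aminotransferase of the second step, was at 20.6 TPM in the mutant and 20.2 TPM in the WT pool (chromosome 19, 15904678 to 15947337, minus strand). Their differences were 0.00 and 0.02, both below the median of 0.14 over all genes. Both turned slightly negative under centring (-0.11 and -0.09) and under quantile normalization (-0.18 and -0.12). Without globin, mitochondrial, predicted, Rik and ribosomal protein genes they were -0.05 and -0.03. Psat1 mRNA was 2.85 times as abundant as that of Phgdh in the mutant pool and 2.80 times in the WT pool. The proportion of the 2 mRNAs was thus close to the same. The table also holds a pseudogene copy, Phgdh-ps1, with which reads of Phgdh may be shared.

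Slc7a11 encodes xCT, the cystine importer that exchanges cystine for glutamate and feeds glutathione synthesis. Besides ATF4, the factor NRF2 is known to activate it. Slc7a11 was at 10.6 TPM in the mutant pool and 5.52 TPM in the WT pool, a ratio of 1.92 and a difference of 0.83, at percentile 90.8 of its abundance class (chromosome 3, 49892526 to 50443614, minus strand). Its difference stayed between 0.57 and 0.93 in all 8 alternative settings. Chac1, an enzyme that breaks down glutathione and is strongly induced by ATF4 in cultured cells, was at 3.23 TPM in the mutant and 2.80 TPM in the WT pool, a difference of 0.15 that became -0.09 under quantile normalization (chromosome 2, 119351229 to 119354381, plus strand). Slc7a11 was thus 3.28 times as abundant as Chac1 in the mutant pool and 1.97 times in the WT pool.

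Of the regulators, Atf4 itself was at 77.9 TPM in the mutant pool and 72.4 TPM in the WT pool (chromosome 15, 80255184 to 80257541, plus strand). Its difference of 0.10 lay below the overall median, at percentile 48.9 of its class, and was -0.01 when centred and -0.02 under quantile normalization. Atf4 mRNA was 8.80 times as abundant as that of Asns in the mutant pool and 20.3 times in the WT pool.

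Ddit3 encodes CHOP, a C/EBP-family factor induced by ATF4 that takes part in stress-related cell death. Ddit3 was at 49.5 TPM in the mutant and 39.1 TPM in the WT pool, a difference of 0.33 at percentile 72.1 (chromosome 10, 127290774 to 127296288, plus strand). The Ddit3 locus overlaps the methionyl-tRNA synthetase gene Mars on the opposite strand, which was at 56.8 TPM in the mutant and 38.2 TPM in the WT pool. Whether strand was used is not given in the sources used here, so reads from the overlap cannot be told apart.

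Trib3, a pseudokinase that ATF4 and CHOP induce and that in turn restrains ATF4, was the single member with less transcript in the mutant pool in the values as deposited. It was at 2.33 TPM in the mutant and 4.66 TPM in the WT pool, so that the WT level was 1.998 times as high, a difference of -0.76 at percentile 6.42 of its class (chromosome 2, 152337422 to 152344032, minus strand). On the scale with a pseudocount of 1 it did not reach the 2-fold limit, nor in the 7 alternative settings that kept it, where it ran from -0.99 to -0.40. Ddit3 was 21.2 times as abundant as Trib3 in the mutant pool and 8.38 times in the WT pool.

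Sesn2, a leucine sensor that holds back mTORC1 and is a target of both ATF4 and p53, was at 4.60 TPM in the mutant and 3.55 TPM in the WT pool (chromosome 4, 132492032 to 132510501, minus strand). Its difference of 0.30 stood at percentile 54.9 of the genes from 1 to 5 TPM and shrank to 0.06 under quantile normalization.

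Hspa5 was by far the most abundant of the 10, with 73.4% of their summed TPM in the mutant and 71.0% in the WT pool. It was at 509.7 TPM in the mutant pool and 390.4 TPM in the WT pool, a ratio of 1.31 and a difference of 0.38 (chromosome 2, 34771970 to 34777547, plus strand). Among genes of at least 200 TPM, whose median difference was -0.03, it stood at percentile 83.5, and its difference ran from 0.27 to 0.43 in the alternative settings. The contrast gene of the unfolded protein response thus came after Asns and Slc7a11 by difference and ahead of Ddit3, Sesn2, Chac1 and Atf4. Hspa5 was 57.6 times as abundant as Asns in the mutant pool and 109.6 times in the WT pool.

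The order of levels was alike at the top and not at the bottom. Hspa5, Atf4, Ddit3 and Psat1 were the 4 highest in both pools, in that order. Below them the order in the mutant pool was Slc7a11, Asns, Phgdh, Sesn2, Chac1 and Trib3. In the WT pool it was Phgdh, Slc7a11, Trib3, Asns, Sesn2 and Chac1. Asns and Sesn2 differed by little in the WT pool (3.56 and 3.55 TPM), and without replicates no neighbours in these orders can be said to differ.

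**Figure D3:**
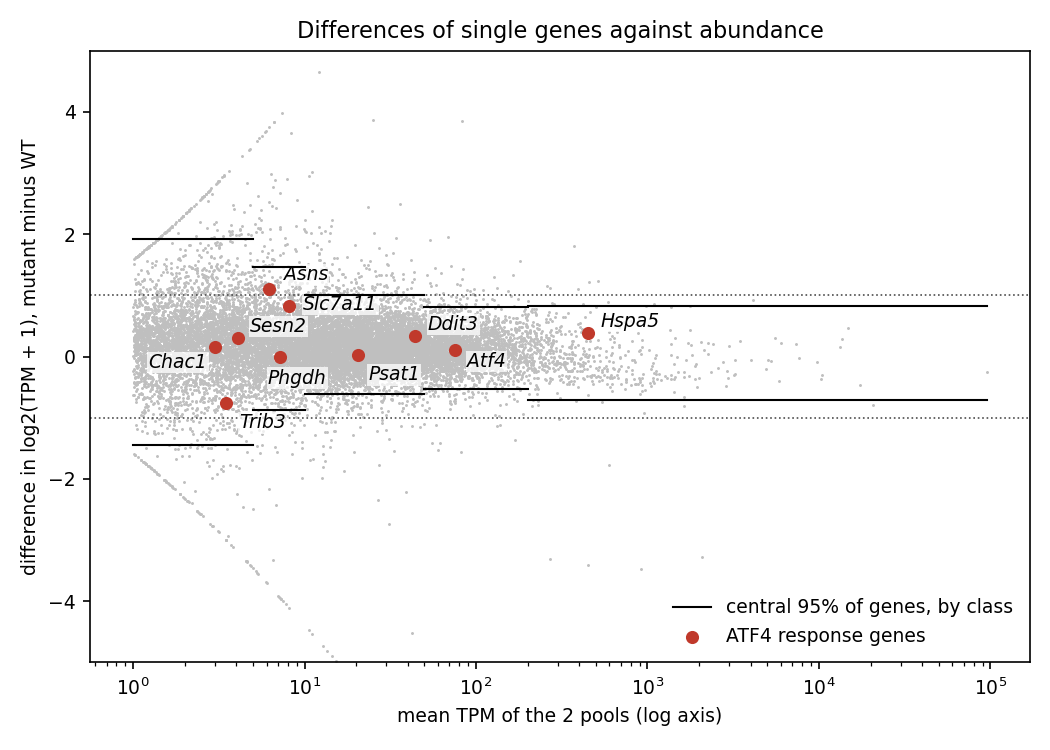
Difference of each gene against its abundance. The x axis is the mean TPM of the 2 pools on a log axis, the y axis is the difference in log2(TPM + 1), mutant minus WT, grey points are the 17004 genes averaging at least 1 TPM (3 lie beyond the axis), black lines bound the central 95% of genes in each abundance class and dotted lines mark 2-fold. The 10 named genes, in red, all lie between the black lines, with Asns (1.11) highest and Trib3 (-0.76) lowest.

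Other genes of the pathway were described by 13 lists, from the eIF2 kinases to the targets of ATF4 and of the neighbouring stress pathways. Over the 164 different genes of these lists that average at least 1 TPM, 0 were 2-fold higher and 0 were 2-fold lower, beside 4.81% and 1.72% of all genes and 2.7% and 0.923% of protein-coding genes. Of the 164, 136 had a mean TPM of at least 10, where 2-fold differences were rarer. Their differences ran from -0.78 to 0.85 with a median of 0.09, and 69.5% lay above 0 beside 64.9% of all genes. List medians were above 0 in 12 of the 13 lists as deposited, in 7 when centred and in 6 under quantile normalization, so their signs depended on the scaling. Genes are called measured where they average at least 1 TPM.

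Upstream of ATF4, a list of 15 genes held eIF2 kinases, eIF2 phosphatase subunits and eIF2B, with Eif2s1, Gcn1l1 and Impact among the rest. Of these 15 genes, 11 had more TPM in the mutant pool, with a median of 0.11 over the list. Eif2ak3, which encodes PERK, the eIF2 kinase of the endoplasmic reticulum, had the largest difference of these at 0.60 (20.03 TPM in the mutant and 12.9 TPM in the WT pool). Eif2ak2, the double-stranded RNA-activated kinase PKR and an interferon-induced gene, was at 58.9 TPM in the mutant and 42.2 TPM in the WT pool. Gcn1l1, whose product is needed to activate the amino acid sensing kinase GCN2, was at 169.97 TPM in the mutant and 121 TPM in the WT pool, and the eIF2B subunit gene Eif2b3 at 32.0 and 22.2 TPM in the same order.

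The bZIP factors that pair or compete with ATF4 differed little, with a median of 0.08 over 10 genes. Their differences ran from -0.21 for Jdp2 to 0.34 for Cebpb, which was at 2.71 TPM in the mutant and 1.93 TPM in the WT pool. Cebpg, a dimer partner of ATF4, was at 45.7 TPM in the mutant and 37.2 TPM in the WT pool, and Cebpd, a C/EBP factor of inflammation, at 14.5 and 11.4 TPM. The most abundant, Nfe2l2 (NRF2) and Atf2, were at 156 and 123 TPM in the mutant pool, against 148 and 122 TPM in the WT pool.

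Genes that handle amino acids differed in both directions. Over the 13 enzymes of serine, glycine, proline and one-carbon metabolism the median was 0.17. The largest difference of the list was that of Mthfd1l, which averaged below 5 TPM. Mthfd1l was at 5.23 TPM in the mutant and 2.45 TPM in the WT pool, a ratio of 2.13 and a difference of 0.85. Aldh1l2, a mitochondrial enzyme that oxidises formyl-tetrahydrofolate, was at 38.6 TPM in the mutant and 23.9 TPM in the WT pool, a difference of 0.67. In contrast Aldh18a1, of proline synthesis, was at 13.8 TPM in the mutant and 17.1 TPM in the WT pool, and the folate enzyme gene Mthfd1 at 19.99 and 22.6 TPM. Enzymes of asparagine, aspartate and glutamine had a median of 0.17 over 9 measured genes, without a difference above 0.32. The asparaginase gene Asrgl1 was at 19.2 TPM in the mutant and 15.2 TPM in the WT pool. Asl, argininosuccinate lyase, was at 24.1 TPM in the mutant and 19.3 TPM in the WT pool. Glul, which makes glutamine, was at 230.3 TPM in the mutant and 204 TPM in the WT pool.

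Amino acid transporters other than Slc7a11 had a median of 0.17, with 8 of 11 measured genes above 0. The cationic amino acid carriers Slc7a1 (34.2 TPM in the mutant and 24.4 TPM in the WT pool) and Slc7a2 (87.9 and 66.6 TPM) had the largest differences, at 0.47 and 0.39. Slc3a2, the heavy chain with which xCT forms its dimer, was at 90.2 TPM in the mutant and 87.5 TPM in the WT pool, a difference of 0.04 beside the 0.83 of Slc7a11. Slc38a2, a neutral amino acid carrier and known ATF4 target, was at 86.2 TPM in the mutant and 76.8 TPM in the WT pool.

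Of the 14 genes for aminoacyl-tRNA synthetases and the tRNA exporter that are reported ATF4 targets, 11 lay above 0, with a median of 0.19. Mars had a difference of 0.56 and Sars, for seryl-tRNA synthetase, one of 0.54 (33.05 TPM in the mutant and 22.4 TPM in the WT pool). Nars, which charges tRNA with asparagine, was at 76.7 TPM in the mutant and 68.2 TPM in the WT pool, and the bifunctional synthetase gene Eprs at 65.9 and 57.1 TPM. The 7 other cytosolic synthetases had a median of 0.05, among them Dars at 36.6 TPM in the mutant and 28.4 TPM in the WT pool, Farsb at 83.1 and 96.7 TPM and Qars at 77.0 and 74.4 TPM. The difference between these 2 lists was not tested.

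Further reported ATF4 targets were divided, with 7 of 14 measured genes above 0 and a median of 0.06. The most abundant, the stress-induced chromatin protein gene Nupr1, was at 364 TPM in the mutant and 222 TPM in the WT pool, a difference of 0.71. Tnfrsf10b, the death receptor that CHOP induces, was at 17.2 TPM in the mutant and 10.8 TPM in the WT pool. The autophagy receptor gene Sqstm1 was at 192 TPM in the mutant and 199 TPM in the WT pool. The angiogenic factor gene Vegfa differed most in the other direction, at 75.8 TPM in the mutant and 117 TPM in the WT pool, a difference of -0.62. The hormone gene Fgf21 was listed at 0 in both pools, and Adm2 in the mutant pool.

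Around Hspa5, 19 of 22 other genes of endoplasmic reticulum folding and the unfolded protein response lay above 0, with a median of 0.15, close to the overall 0.14. Edem1, which sends misfolded glycoproteins to degradation, was at 57.98 TPM in the mutant and 38.1 TPM in the WT pool, and the secreted stress protein gene Manf at 87.4 and 59.03 TPM, with differences of 0.59 and 0.56. The abundant chaperones Hsp90b1 (747 TPM in the mutant and 733 TPM in the WT pool) and Pdia3 (284 and 285 TPM) had differences of 0.03 and -0.01, beside the 0.38 of Hspa5.

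Neighbouring stress pathways had medians from -0.02 to 0.21. Mitochondrial chaperones and proteases had a median of -0.02 over 9 genes, with the protease subunit gene Clpx at 25.2 TPM in the mutant and 39.7 TPM in the WT pool, Clpp at 18.9 and 22.8 TPM, Hspe1 at 109 and 103 TPM and Hspd1 at 96.6 and 95.8 TPM. Glutathione genes and NRF2 targets, which share Slc7a11 with the ATF4 pathway, had a median of 0.05 over 13 genes and differed in both directions. Gclc, the catalytic subunit of the first enzyme of glutathione synthesis, was at 30.7 TPM in the mutant and 53.5 TPM in the WT pool, a difference of -0.78. Gss, the second enzyme, was at 23.8 TPM in the mutant and 14.1 TPM in the WT pool, a difference of 0.72. Gpx4 was at 59.5 TPM in the mutant and 69.9 TPM in the WT pool, and G6pdx at 44.3 and 45.2 TPM. Targets of p53, which share Sesn2, had a median of 0.21 over 11 genes, with the cell cycle inhibitor gene Cdkn1a at 681 TPM in the mutant and 514 TPM in the WT pool, Ccng1 at 84.6 and 83.9 TPM, and Zmat3 at 38.5 and 28.5 TPM.

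Genes of amino acid sensing upstream of mTORC1, the process in which Sesn2 takes part, had a median of 0.03 over 17 genes. Nprl2, Nprl3 and Depdc5, subunits of GATOR1, the complex that switches mTORC1 off when amino acids are short, had more TPM in the mutant pool. Nprl2 was at 17.8 TPM in the mutant and 10.005 TPM in the WT pool, and Nprl3 at 33.9 and 19.6 TPM, with differences of 0.77 and 0.76. Depdc5 differed less, at 23.8 TPM in the mutant and 19.2 TPM in the WT pool, a difference of 0.30. The Sesn2 relative Sesn3 was at 79.1 TPM in the mutant and 86.2 TPM in the WT pool, and Sec13 at 59.4 and 60.6 TPM.

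**Figure D4:**
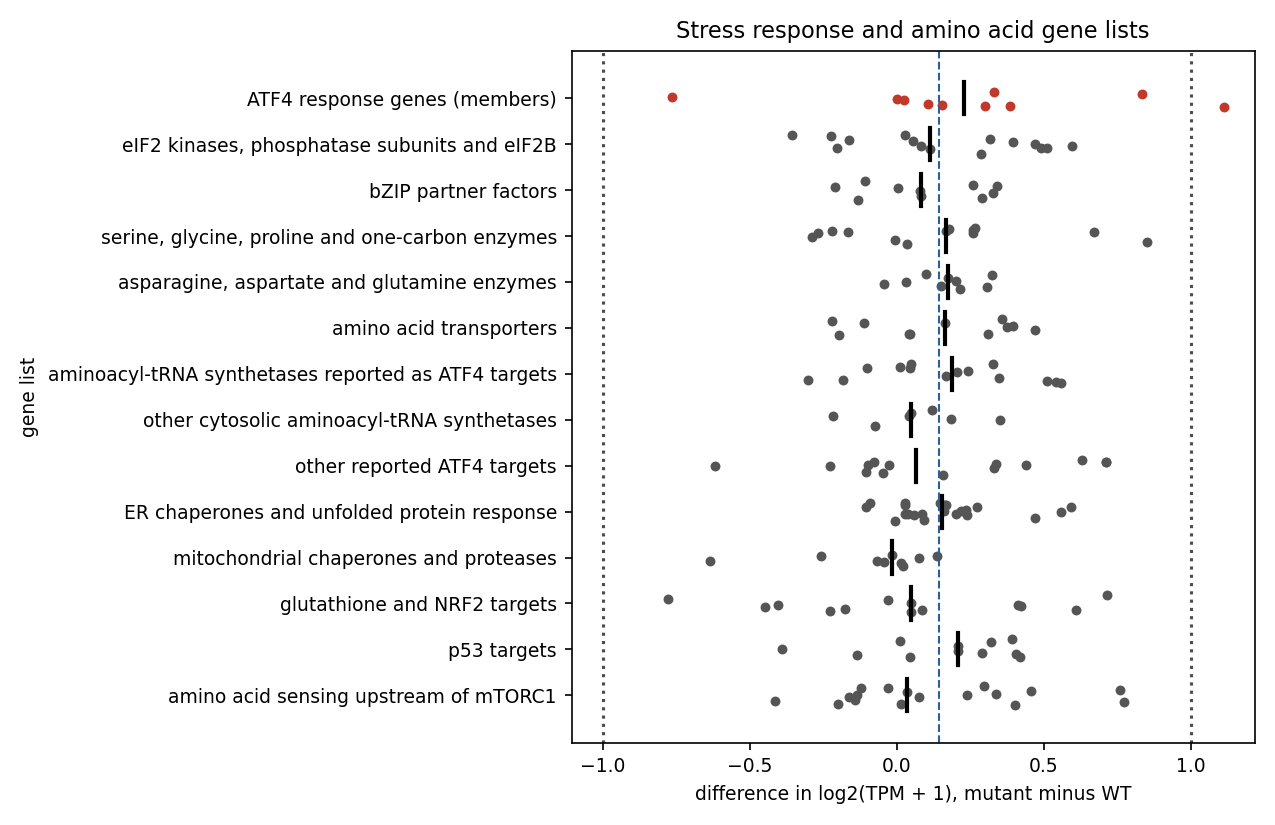
Differences of the members and of the 13 lists around them. The x axis is the difference in log2(TPM + 1), mutant minus WT, each point is 1 gene averaging at least 1 TPM, black ticks are list medians, the dashed line is the median of all genes (0.14) and dotted lines mark 2-fold. Asns is the single point beyond 2-fold, and list medians run from -0.02 for mitochondrial chaperones and proteases to 0.23 for the members.

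Markers of other cell types differed between the same 2 libraries, and their part in the values of Asns, Slc7a11 and Trib3 was not tested. In bulk tissue, fewer cells of a type and less RNA per cell cannot be told apart. Of 12 neutrophil markers 4 of 7 measured were 2-fold higher, and the list summed to 107 TPM in the mutant and 19.5 TPM in the WT pool, with Ltf and Elane listed at 0 in the mutant and Ngp and Elane in the WT pool. S100a9 was at 47.96 TPM in the mutant and 2.34 TPM in the WT pool, and Cxcr2 at 18.02 and 6.43 TPM. Granule genes stayed low and differed in both directions. Mmp9 was at 1.63 TPM in the mutant and 0.274 TPM in the WT pool, and Mmp8 at 0.873 and 0.0703 TPM. Ngp, at 0 in the WT pool, was at 0.286 TPM in the mutant pool. Mmp9, Mmp8 and Ngp averaged below 1 TPM, as did Ltf. Camp was at 0.949 TPM in the mutant and 1.49 TPM in the WT pool, Retnlg at 1.13 and 1.21 TPM, Mpo at 1.19 and 1.008 TPM, and Ltf, at 0 in the mutant pool, at 0.671 TPM in the WT pool. Of 8 monocyte markers 4 of 7 measured were 2-fold higher, with sums of 778 TPM in the mutant and 477 TPM in the WT pool, mostly from Vcan (688 and 443 TPM), also a valve matrix gene, and with Plac8 and Fcnb listed at 0 in the WT pool. Ms4a6c was at 35.1 TPM in the mutant and 16.02 TPM in the WT pool. Macrophage markers had 0 of 10 at 2-fold and sums of 947 TPM in the mutant and 839 TPM in the WT pool, led by C1qb (308 and 280.2 TPM) and C1qc (204 and 183 TPM).

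Other marker lists were lower in the mutant pool or similar. T cell markers had 5 of 10 genes 2-fold lower and sums of 61.6 TPM in the mutant and 99.6 TPM in the WT pool, among them Cd3e at 6.35 and 19.2 TPM, while Cd3d was at 26.9 and 19.7 TPM. Red blood cell markers had 4 of 5 measured genes 2-fold lower, all of them globin genes. The list's sum was 687 TPM in the mutant and 6803 TPM in the WT pool, chiefly from Hbb-bs (388 and 3769 TPM) and Hba-a2 (150.4 and 1688 TPM). The other measured gene, Alas2, was at 23.3 TPM in the mutant and 27.6 TPM in the WT pool, a difference of -0.23. Cardiac muscle markers summed to 1995 TPM in the mutant and 2667 TPM in the WT pool with 1 of 10 genes 2-fold lower, led by Actc1 (535 and 673 TPM) and Tnnt2 (506 and 744 TPM), while Nppa was higher in the mutant pool (179 and 117 TPM). Melanocyte markers summed to 84.9 TPM in the mutant and 143 TPM in the WT pool with 1 of 6 genes 2-fold lower, led by Dct (31.1 and 68.2 TPM) and Mlana (13.7 and 24.9 TPM), while Mitf was higher in the mutant pool (18.3 and 14.4 TPM). No 2-fold difference was counted for 11 valve interstitial and fibroblast markers (17580.2 TPM in the mutant and 18322 TPM in the WT pool), nor for 8 endothelial markers (827 and 845 TPM), of which Pecam1 was at 241 and 223 TPM and Egfl7 at 204 and 238 TPM. B and plasma cell markers summed to 24.1 TPM in the mutant and 23.3 TPM in the WT pool, mostly from Sdc1 (18.5 and 18.4 TPM), and had Mzb1 listed at 0 in the mutant pool, with Ms4a1 at 2.33 and 1.66 TPM. Schwann cell markers summed to 65.7 TPM in the mutant and 79.02 TPM in the WT pool, with S100b at 39.7 and 53.8 TPM and Cdh19 at 12.97 and 12.7 TPM. Adipocyte markers summed to 19.8 TPM in the mutant and 31.6 TPM in the WT pool, mostly from Fabp4 (14.7 and 23.6 TPM) and Pparg (3.80 and 6.47 TPM). Plin1 went the other way, at 1.33 TPM in the mutant and 1.23 TPM in the WT pool. Adipoq, Cidec and Lep were listed at 0 in the mutant pool. In the WT pool Lep was also at 0, Adipoq at 0.151 TPM and Cidec at 0.16 TPM.

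**Figure D5:**
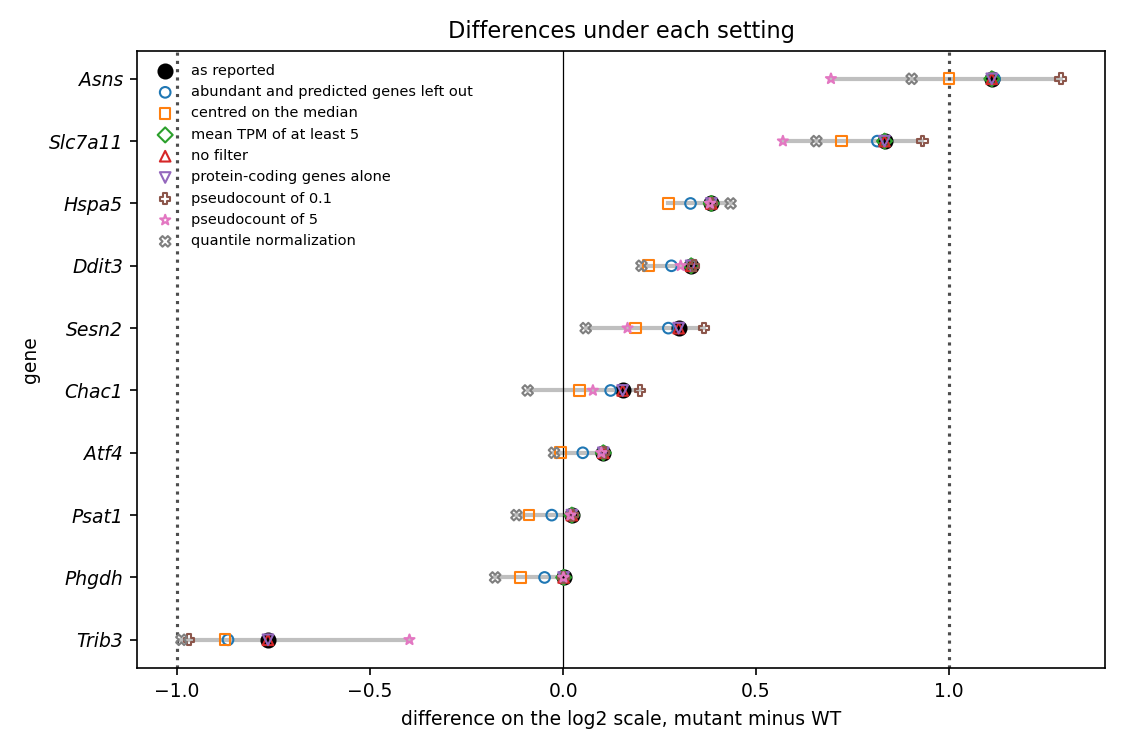
Difference of each member under every setting. The x axis is the difference on the log2 scale, mutant minus WT, black points are the values as reported, open symbols are the alternatives and grey bars span them, and dotted lines mark 2-fold. Asns runs from 0.69 to 1.29 and crosses the 2-fold line, Slc7a11, Hspa5, Ddit3 and Sesn2 stay above 0 and Trib3 below 0 in the settings run, and Chac1, Atf4, Psat1 and Phgdh cross 0.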

How the data were processed

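The authors deposited 1 table of TPM values per gene symbol for 2 libraries, per the file headers. Per the labels' protocols, the RNA was amplified (Ovation RNAseq system v2), made into libraries with Nextera XT and sequenced on a HiSeq instrument, so reads are not independent molecules. Per the submitters' processing notes, Trimmomatic, HISAT2, kallisto and the mm10 genome were used, with no roles or versions given.

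Columns were matched to libraries by genotype. The single comparison was Fbn1C1039G/+ against WT on log2(TPM + 1), with a pseudocount of 1 and a minimum mean TPM of 1. It was computed in Python 3.11.15 with pandas 2.3.3. The code was checked on WT values with fold changes planted into them. No noise was added, so that check does not cover the scatter between libraries. With 1 library per genotype no test was run. Members and lists were chosen with earlier results of these data known. Named genes were the members, Fbn1, the 3 nearest to Asns, and in each list the 2 most abundant and, outside the cell type lists, the 2 with the largest difference at a mean TPM of at least 5. Beyond this rule, genes were named after their values were seen for being listed at 0 or for an overlap. Others were named, also after their values were seen, for a value unlike their list's (Camp, Retnlg, Mpo, Nppa, Mitf, Vegfa, Mthfd1l, Plin1, Alas2). Cebpb and Jdp2 were named as the ends of their list's range, and Depdc5 as a further GATOR1 subunit. Eif2s1 and Impact were named to describe their list. Mmp8 and Mmp9 were named beside Camp, Retnlg and Mpo as further granule genes. Some items that this rule would name are left out of the text. For 5 list symbols the table's older name was used, from RefSeq synonyms. Gene coordinates are from GENCODE M21 and promoter windows from RefSeq (GRCm38.p6), both of the mm10 build. GENCODE holds 2 entries for Ddit3, of which the longer is given. Alternatives were other pseudocounts, filters and scalings.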

Additional observations from a re-analysis of the deposited data

How the results depend on the processing

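The number of genes 2-fold higher, 818, became 1264 with a pseudocount of 0.1, 209 with a pseudocount of 5, 360 at a mean TPM of at least 5, 540 under quantile normalization, 499 without globin, mitochondrial, predicted, Rik and ribosomal protein genes, and 397 over protein-coding genes alone, an alternative chosen after seeing the data. The number 2-fold lower, 293, became 464, 87, 103, 462 and 136 with pseudocounts of 0.1 and 5, at a mean TPM of at least 5, under quantile normalization and over protein-coding genes. Of the members, 1 was 2-fold higher (Asns) except with a pseudocount of 5, where Asns was at 0.69, when centred on the median and under quantile normalization, where the count was 0. Pseudocounts and filters act on low genes by construction, and for the scalings the cause was not tested. The median difference of the members, 0.23, became 0.13 with a pseudocount of 5, 0.12 when centred and 0.018 under quantile normalization, where the median of all genes was -0.01. Of the 164 genes of the pathway lists, 1 (Mthfd1l) was 2-fold higher with a pseudocount of 0.1, and 0 were 2-fold in either direction under the other settings. No paired analysis was possible because each genotype had 1 library. The unknown depth limits the low members Asns, Trib3, Sesn2 and Chac1 most.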

Other observations

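Genes with and without the C/EBP-ATF core TGATGNAA in a RefSeq promoter window were set side by side. This comparison was chosen after the values were seen and was not tested. Asns, by which the set was chosen, has the core in its window, so the comparison is not independent of that choice. A gene counted as carrying the core when any of its windows held it. Of 367 such genes averaging at least 1 TPM, 18 (4.9%) were 2-fold higher in the mutant pool and 1 was 2-fold lower, and their median difference was 0.22. Of 11122 genes with windows but no core, 279 (2.51%) were 2-fold higher and 111 were 2-fold lower, with a median of 0.13. Over all 17004 genes averaging at least 1 TPM, with or without a window, 4.81% were 2-fold higher and 1.72% were 2-fold lower. Over protein-coding genes alone these shares were 2.7% and 0.923%. Among genes averaging 10 TPM or more, the shares 2-fold higher were 4 of 202 (1.98%) with the core and 92 of 7322 (1.26%) without it, and the medians were 0.20 and 0.11. Windows with the core had a median GC content of 45.7%, against 53% for the others, and genes with the core had a lower median abundance (13.4 TPM against 18.1 TPM). The part of base composition and abundance in these shares was not tested.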
